A study of Mus musculus with 12 samples.

Results

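The effect of losing the P2X7 receptor on hippocampal miRNAs after a prolonged seizure was examined across 411 miRNA assays, out of 619 miRNA assays on the panel. The 411 were those with a threshold cycle (Ct) in all 3 P2rx7-/- and all 3 wild-type (wt) samples taken after status epilepticus. Of the remaining 208, 36 had no Ct in any of these 6 samples and 172 had one in 1 to 5 of them.

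The whole series held 12 samples of ipsilateral hippocampus from C57BL/6 mice, 3 in each of 4 groups set by genotype and injection. The 6 compared here came from wt mice and from P2rx7-/- mice, labelled as 8 weeks old, at 8 h after kainic acid was injected into the amygdala, and the mice had been given the anticonvulsant lorazepam to end the seizures. The other 6, of the same 2 genotypes, had received vehicle in place of kainic acid. Each sample pooled 2 hippocampi from different mice, and the knockout was constitutive, so every cell type of the tissue lacked the receptor. The transcript of P2rx7 was not among the assays, so the genotype labels could not be checked from these values. In whole hippocampus, a change in the number of cells of a type and a change in the miRNA held by each cell cannot be told apart.

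miRNAs are short RNAs that bind messenger RNAs, mainly through bases 2 to 8 of their 5′ end (the seed), and lower the output of those messengers. Each comes from a hairpin with 2 arms; the less abundant arm, the passenger strand, is marked with an asterisk in the older names used by this panel. P2X7 is an ATP-gated ion channel found above all on microglia, where its opening promotes release of Interleukin-1β, and kainic acid is a glutamate receptor agonist used to evoke seizures. The prefixes hsa, mmu and rno give the species (human, mouse, rat) for which an assay was designed; all samples were mouse.

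Mature sequences were taken from RefSeq (GRCm38.p6) by miRNA name for the miRNAs on which the results turn, with the seed in capitals. The first set holds miRNAs whose 3 P2rx7-/- samples all lay above the 3 wt samples.
miR-191-3p (assay miR-191*, chr9:108568367-108568388, plus strand, within the bounds of Dalrd3): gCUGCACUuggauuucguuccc
miR-27b-5p (assay miR-27b*, chr13:63300718-63300739, plus strand, within Aopep): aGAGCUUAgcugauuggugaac
miR-701-5p (assay miR-701, chr5:111004170-111004190, plus strand, within Ttc28): uUAGCCGCugaaauagaugga
miR-32-5p (assay miR-32, chr4:56895272-56895293, minus strand, within Tmem245): uAUUGCACauuacuaaguugca

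The next set holds miRNAs whose 3 P2rx7-/- samples all lay below the wt samples. miR-25-3p is shown because its seed, AUUGCAC, is the same as that of miR-32-5p, which lay on the other side, and both arms of the miR-139 hairpin are shown because both lay below.
miR-25-3p (assay miR-25, chr5:138165332-138165353, minus strand, within Mcm7): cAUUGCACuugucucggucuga
miR-139-5p (chr7:101475382-101475403, plus strand, within Pde2a): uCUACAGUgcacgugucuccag
miR-139-3p (chr7:101475418-101475439, plus strand, within Pde2a): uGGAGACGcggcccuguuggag
miR-490-3p (assay miR-490, chr6:36421800-36421821, plus strand, within Chrm2): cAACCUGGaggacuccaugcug
miR-30a-5p (chr1:23272274-23272295, plus strand): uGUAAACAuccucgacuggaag
let-7a-5p (assay let-7a, chr13:48538239-48538260, minus strand): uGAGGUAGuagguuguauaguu

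The last set holds the miR-34 and miR-449 miRNAs, whose 5p arms share the seed GGCAGUG while the 3p arms of miR-34b and miR-34c share AUCACUA, and the inflammation-related miR-155 and miR-223.
miR-34a-5p (assay miR-34a, chr4:150068473-150068494, plus strand): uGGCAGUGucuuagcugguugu
miR-34b-5p (chr9:51103610-51103632, minus strand, within Hoatz and Btg4): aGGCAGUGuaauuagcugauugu
miR-449a-5p (assay miR-449, chr13:113037549-113037570, plus strand, within Cdc20b): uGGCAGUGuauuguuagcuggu
miR-34b-3p (chr9:51103574-51103595, minus strand, within Hoatz and Btg4): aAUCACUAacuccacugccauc
miR-34c-3p (assay miR-34c*, chr9:51103044-51103065, minus strand, within Hoatz and Btg4): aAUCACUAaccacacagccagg
miR-155-5p (assay miR-155, chr16:84714143-84714165, plus strand, within Mir155hg): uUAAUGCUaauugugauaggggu
miR-223-3p (assay miR-223, chrX:96242884-96242905, plus strand, within F630028O10Rik): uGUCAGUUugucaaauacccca

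Levels were expressed as fold changes (FC): each sample's mean Ct over the 411 assays was subtracted, and the difference from the mean of the 3 wt post-status epilepticus (post-SE) samples was converted at 1 cycle per 2-fold. Mean Ct over the 411 assays ranged from 18.5 to 19.2 among the 6 samples, and between 476 and 519 of the 619 miRNA assays gave a Ct in a sample. Spearman correlations between pairs of samples ran from 0.913 to 0.975, averaging 0.937 within a genotype and 0.940 between genotypes. On average, samples of the same genotype were thus no more alike than samples of different genotypes. The median SD within a genotype was 0.555 cycles. wt replicate 1 gave the fewest Ct values, and 33 assays were missing in that sample alone, against 3 to 11 in each of the others. Its 16 repeated wells of the snoRNA135 control had an SD of 1.38 cycles, P2rx7-/- replicate 1 had 0.851, and the other 4 samples had 0.248 to 0.306.

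Between P2rx7-/- and wt mice after status epilepticus, many miRNAs passed a fold threshold, but none passed the test against the spread between samples. By the study's threshold on the average FC, 75 miRNAs were up-regulated in P2rx7-/- mice (average FC above 1.5; 18.2% of 411) and 24 were down-regulated (average FC below 0.6; 5.84%). With snoRNA135 as normalizer the split was 114 up and 17 down, and with snoRNA202 it was 117 and 20. With limma, the percentage at an adjusted p below 0.05 was 0%; the lowest adjusted p was 0.977, and 4 miRNAs (0.973%) had an unadjusted p below 0.05. The methods' t-test gave 3 at an unadjusted p below 0.05 and 0 after adjustment. The log2 differences were balanced around zero, with 204 above and 207 below and a median of -0.01.

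The precision limits what could be seen. The median standard error of a log2 difference was 0.46, and the 95% interval extended by a median of 1.09 on the log2 scale to either side, which corresponds to 2.13-fold. For 45 of the 411 miRNAs (10.9%) the whole interval lay within a 2-fold change in either direction. The share past the FC thresholds was larger at higher Ct up to 26: 4 of the 40 miRNAs with a mean Ct of 10 to 14, and 32 of the 84 (38.1%) with a mean Ct of 22 to 26, but 0 of the 4 with a mean Ct of 26 to 28. The median SD within a genotype was 1.15 cycles for the up-regulated, 1.43 for the down-regulated and 0.469 for the other miRNAs.

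**Figure D1:**
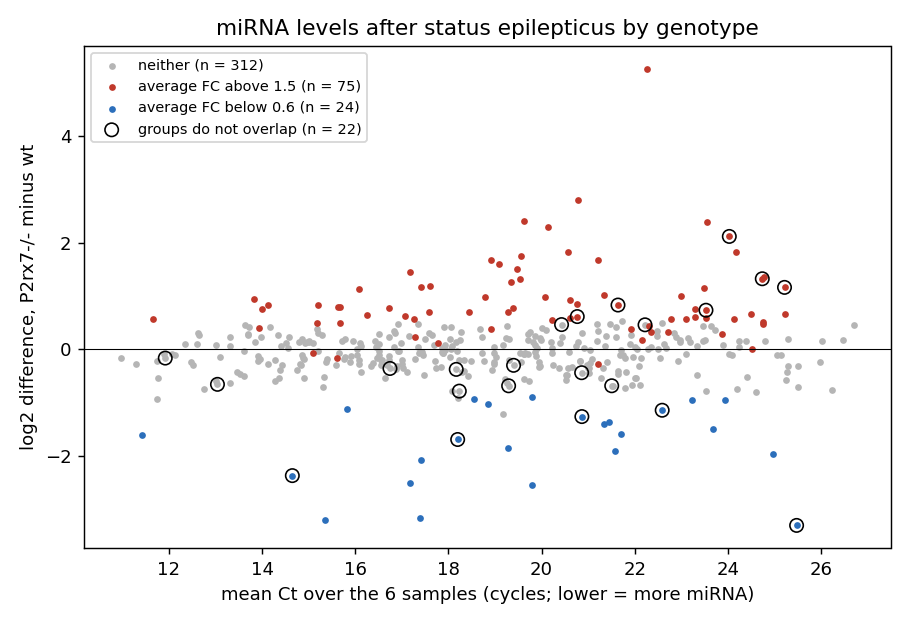
Log2 difference between P2rx7-/- and wt post-SE samples (y axis) against mean Ct over the 6 samples in cycles (x axis) for 411 miRNA assays; red marks average FC above 1.5 (75), blue average FC below 0.6 (24), and black rings the 22 whose genotype groups did not overlap. Most points past the thresholds carry no ring, and miR-873 at 5.26 stands highest.

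The groups did not overlap for 22 miRNAs: 8 with every P2rx7-/- sample above every wt sample (1.95%) and 14 with all below (3.41%). This split turned with the normalizer: 11 lay above and 8 below with the median Ct, 21 and 3 with snoRNA135, and 18 and 4 with snoRNA202, whereas it was 3 and 10 with the mean over every miRNA detected in a sample. Of these 22, 6 also passed the FC threshold upward and 5 downward. With 3 samples against 3, an exact two-sided permutation test of a single miRNA cannot go below p = 0.1, so none of these separations could reach 0.05 on its own.

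Among those higher in P2rx7-/-, miR-191* had the largest difference. Its FC was 0.399, 1.16 and 2.16 in wt replicates 1 to 3 and 2.20, 6.91 and 5.38 in P2rx7-/- replicates 1 to 3, so the lowest knockout sample lay just above the highest wt sample. The log2 difference was 2.12 (SE 0.73, limma adjusted p = 0.977). It is the 3p arm of a hairpin whose abundant product is miR-191.

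miR-701 was among the least abundant miRNAs measured, with a mean Ct of 25.2. Its FC was 0.824, 1.33 and 0.910 in wt samples and 1.54, 2.80 and 2.61 in P2rx7-/- samples. Every knockout sample exceeded 1.5 and no wt sample did. The log2 difference was 1.16 (SE 0.40, limma adjusted p = 0.977).

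miR-27b* had one of the smallest spreads among the up-regulated miRNAs. Its FC was 1.75, 1.75 and 1.85 in the P2rx7-/- samples, averaging 1.78 ± 0.06 (SD, n = 3), against 1.22, 0.681 and 1.20 in wt. The log2 difference was 0.83 (95% interval -0.04 to 1.70, limma adjusted p = 0.977). The other arm of the same hairpin, miR-27b, had 0.755 to 0.932 in P2rx7-/- and 0.857 to 1.22 in wt, a log2 difference of -0.30 with overlapping groups. The arms thus differed in the sign of their difference.

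miR-1949 had FC of 0.354, 1.74 and 1.62 in wt and 1.98, 2.24 and 3.54 in P2rx7-/- samples, a log2 difference of 1.32. miR-32 had 0.675, 1.25 and 1.18 in wt and 2.10, 1.61 and 1.36 in P2rx7-/-, a difference of 0.73. In both, wt replicate 1 was the lowest sample. The remaining 3 had smaller differences: 0.62 for miR-30d*, 0.47 for miR-352 and 0.46 for miR-1191.

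The 14 that lay lower were led by rno-miR-450, at the edge of detection with a mean Ct of 25.5. Its FC was 0.336, 7.04 and 0.423 in wt and 0.102, 0.0990 and 0.104 in P2rx7-/- samples, so the knockout samples were tightly grouped and wt replicate 2 stood far from the other wt samples. The log2 difference was -3.30 (SE 1.13, limma adjusted p = 0.977). miR-715 had 0.803, 0.587 and 2.12 in wt and 0.312, 0.210 and 0.457 in P2rx7-/-, a difference of -1.69 (limma adjusted p = 0.977).

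miR-490, encoded within the muscarinic receptor gene Chrm2, had FC of 1.75, 0.725 and 0.788 in wt and 0.580, 0.311 and 0.516 in P2rx7-/- samples. The log2 difference was -1.14 (95% interval -2.28 to 0.00, limma adjusted p = 0.977). The rat assay rno-miR-17-3p had 0.904, 1.15 and 0.959 in wt and 0.523, 0.776 and 0.180 in P2rx7-/-, a difference of -1.26. Here P2rx7-/- replicate 3 was the lowest sample. The mouse assay miR-17*, which gives the same arm its older name, had a log2 difference of 0.57 with overlapping groups. The rat and mouse assays thus had opposite signs.

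Both arms of miR-139, whose hairpin lies in the phosphodiesterase gene Pde2a, had all 3 P2rx7-/- samples below wt. For miR-139-3p the FC was 0.997, 1.15 and 0.874 in wt and 0.711, 0.363 and 0.763 in P2rx7-/-, a log2 difference of -0.78. For the far more abundant miR-139-5p (mean Ct 11.9 against 18.2) the difference was only -0.16, and the knockout samples at 0.982 and 0.968 nearly touched the lowest wt sample at 0.987. Among 64 hairpins whose arms were paired by assay name, this was the 1 pair separated in the same direction in both arms. Further assays of an arm under another name, such as rno-miR-17-3p beside miR-17*, were left out of the pairs. The arms had the same sign in 31 of the 64 pairs, and their log2 differences had a Pearson r of -0.01 and a Spearman rho of 0.09 across hairpins. Hairpins share samples and normalization, so these are descriptions.

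miR-30a-5p, an abundant brain miRNA, had FC of 1.52, 0.780 and 0.842 in wt and 0.735, 0.616 and 0.566 in P2rx7-/- samples, a log2 difference of -0.65. Its partner miR-30a-3p had 1.45, 1.13 and 0.613 in wt and 1.37, 1.22 and 1.46 in P2rx7-/-, a difference of 0.43 with overlap. The seed-sharing pair of miR-32 and miR-25 lay on opposite sides. miR-25 had 0.810, 1.10 and 1.12 in wt and 0.780, 0.793 and 0.653 in P2rx7-/-, a difference of -0.44, while that of miR-32 was 0.73.

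The other members of this group were miR-467a, miR-582-5p, miR-365, miR-335* and miR-384-3p, with log2 differences between -0.68 and -0.30, and let-7a, which is described with its family. miR-467a separated by the narrowest of margins, since wt replicate 1 and P2rx7-/- replicate 1 both had an FC of 0.672.

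**Figure D2:**
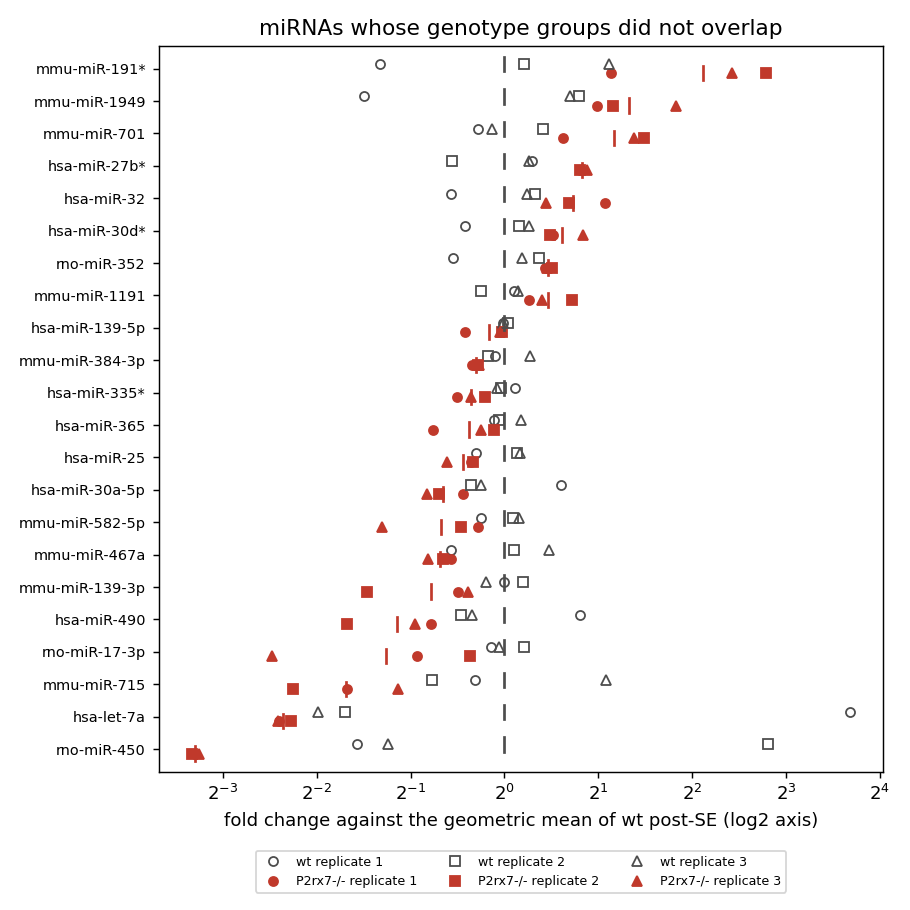
Fold change against the geometric mean of wt post-SE (x axis, log2 scale) in each of the 6 samples for the 22 miRNAs whose genotype groups did not overlap; open grey symbols are wt, filled red symbols P2rx7-/-, the symbol shape gives the replicate, and bars mark geometric means. The 8 at the top lie higher and the 14 at the bottom lower in P2rx7-/-; single wt samples of let-7a (12.9) and miR-450 (7.04) sit far to the right.

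Many of the largest average FC values came from 1 sample. Of the 75 up-regulated miRNAs, 15 exceeded 1.5 in all 3 P2rx7-/- samples, 22 in 2 and 38 in 1. Of the 24 down-regulated, 13 were below 0.6 in all 3 P2rx7-/- samples, 9 in 2 and 2 in 1. The wt reference carried its own spread, and 33 of the 411 miRNAs had an average FC above 1.5 in the wt samples themselves.

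miR-873 had the highest average FC. Its Ct was 23.3 to 27.4 in wt and 10.5, 23.6 and 24.8 in P2rx7-/- samples. P2rx7-/- replicate 1 alone stood apart, and the FC of the other 2 knockout samples, 2.70 and 1.32, lay within or close to the wt range of 0.216 to 2.63.

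miR-770-3p, from the imprinted Meg3 locus, had FC of 98.0, 2.02 and 1.69 in P2rx7-/- samples against 0.391, 2.50 and 1.02 in wt. Its average of 33.9 therefore rested on replicate 1, and the other 2 knockout samples lay within the wt range. miR-500 had 31.3, 1.38 and 1.02 in P2rx7-/-, again with replicate 1 apart. rno-miR-20b had 1.43, 58.7 and 0.186, here with replicate 2 apart, and its log2 difference turned from 1.32 to -0.95 without that sample.

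hsa-miR-409-5p had FC of 42.6, 1.05 and 0.872 in P2rx7-/- samples and 0.875 to 1.28 in wt, an average of 14.8. Without P2rx7-/- replicate 1 its log2 difference went from 1.76 to -0.07. A second assay for the same miRNA, rno-miR-409-5p, had 0.794, 0.394 and 0.801 in P2rx7-/- and 0.717 to 1.23 in wt, a difference of -0.67. The 2 assays thus had opposite signs, and only the first passed the FC threshold.

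On the other side, the lowest average FC values often came from wt replicate 1. hsa-miR-338, an oligodendrocyte-enriched miRNA, had Ct of 10.1, 19.2 and 18.2 in wt and 18.7, 18.7 and 19.5 in P2rx7-/- samples. miR-326 had 10.8, 18.8 and 18.2 in wt and 18.4 to 18.5 in P2rx7-/-. In both, the 5 other samples lay close together, and without wt replicate 1 the log2 difference of miR-326 turned from -2.50 to 0.23. miR-151 showed the same layout, with a Ct of 13.0 in wt replicate 1 and 17.8 to 19.0 in the other 5.

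miR-721 had Ct of 12.7, 14.7 and 13.9 in wt and 13.4, 21.8 and 15.7 in P2rx7-/- samples. Its log2 difference of -3.21 had a 95% interval of -7.80 to 1.38 and rested largely on P2rx7-/- replicate 2. rno-miR-207 had FC of 0.712, 3.97 and 0.354 in wt and 0.423, 0.204 and 0.246 in P2rx7-/-, with wt replicate 2 apart.

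Across the 411 miRNAs, 42 had at least 1 well over 3 cycles away from where the median of the 5 remaining samples lay. They made up 21 of the 75 up-regulated, 15 of the 24 down-regulated and 6 of the other miRNAs. Among the down-regulated, wt replicate 1 stood more than 3 cycles above the others in level for 8 and wt replicate 2 for 5, while a P2rx7-/- sample stood that far below for 3. Since the same wells entered the averages, these counts describe the calls and do not test them.

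A check within the panel was given by 23 miRNAs measured with 2 assays each under the same name, species prefix aside. Assays of the same strand under different names, such as rno-miR-17-3p and miR-17*, were not paired. Within a pair, the 2 log2 differences had the same sign in 12 of 23 pairs. Across pairs they had a Pearson r of 0.06, a Spearman rho of 0.14 and a median absolute gap of 0.42. Of the 10 pairs with at least 1 assay past an FC threshold, 2 had both past it in the same direction, miR-223 and miR-20b, and 1, miR-324-3p, had them past it in opposite directions. hsa-miR-324-3p had FC of 5.28, 0.410 and 0.461 in wt and 0.322, 0.499 and 0.620 in P2rx7-/-, whereas mmu-miR-324-3p had 0.951 to 1.06 in wt and 6.45, 1.01 and 0.769 in P2rx7-/-. For each of these 2 assays a single replicate 1 well, from the opposite genotype, stood apart. miR-136 was higher with both assays, by 1.68 with the human and 0.28 with the mouse assay, and only the first passed the threshold.

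**Figure D3:**
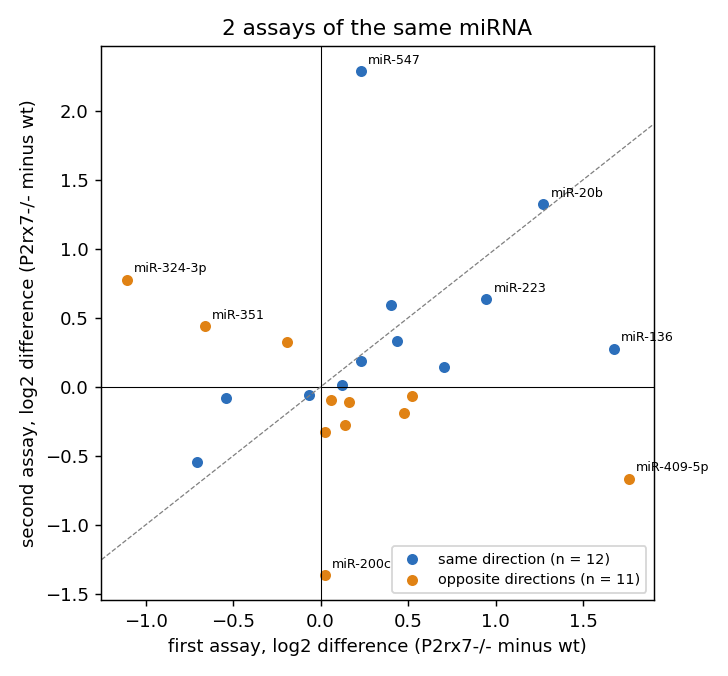
Log2 difference between P2rx7-/- and wt post-SE samples by the first (x axis) and the second (y axis) assay of the same miRNA for 23 miRNAs; blue points (12) have the same sign and orange points (11) opposite signs, and the dashed line marks equality. miR-20b and miR-223 lie near the line in the upper right, while miR-409-5p, miR-324-3p and miR-547 lie far from it.

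The miR-34 and miR-449 miRNAs leaned towards higher values in P2rx7-/- samples. They are known for roles in multiciliated cells, such as those of the ependyma and choroid plexus, and miR-34a as a target of p53. All 8 assays on the panel were measured in the 6 samples, 6 passed the FC threshold upward and 0 downward (18.2% and 5.84% over all 411), and 7 of 8 log2 differences were above zero. Their median log2 difference was 0.75, against -0.01 over all 411. None of the 8 separated the groups and none had an unadjusted limma p below 0.05. The list was chosen with earlier results known, so its counts are a description.

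In all 8 assays wt replicate 1 was the lowest and wt replicate 3 the highest of the wt samples. miR-34b-5p had FC of 0.580, 0.778 and 2.22 in wt and 1.81, 1.75 and 2.61 in P2rx7-/- samples, and miR-34c* had 0.430, 0.746 and 3.12 in wt and 2.68, 1.05 and 3.70 in P2rx7-/-. wt replicate 3 thus lay among the knockout samples. The abundant miR-34b-3p (mean Ct 14.1) had 0.519, 0.932 and 2.07 in wt and 1.36, 1.84 and 2.29 in P2rx7-/-, a log2 difference of 0.84 (95% interval -0.49 to 2.17, limma adjusted p = 0.977).

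The family median, relative to wt, was -1.01, -0.28 and 1.21 in wt and 0.52, 0.81 and 1.28 in P2rx7-/- on the log2 scale. It stayed above zero when any 1 sample was left out, between 0.38 and 1.26, but the number past the FC threshold went from 6 to 2 without wt replicate 1. miR-34a had a layout of its own, at 2.58, 1.16 and 1.11 in P2rx7-/- and 0.782 to 1.46 in wt. The lowest and highest differences were -0.01 for miR-449 and 1.15 for miR-34b.

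Other choroid plexus and ependyma miRNAs were mixed. With the miR-34b, miR-34c and miR-449 assays included, 16 of 18 were measured, 6 were up and 1 down by FC (18.2% and 5.84% over all 411), and the median log2 difference was 0.08. Leaving out 1 sample gave 4 to 9 up and 0 to 4 down, and the median ran from -0.22 without P2rx7-/- replicate 3 to 0.59 without wt replicate 3. miR-204*, the passenger of a miRNA abundant in choroid plexus, had FC of 0.440, 0.825 and 2.75 in wt and 1.60, 2.34 and 3.03 in P2rx7-/-, again with wt replicate 3 among the knockout samples. The epithelial miR-200a, miR-200b and miR-429 had log2 differences of -0.28 to 0.14, and hsa-miR-200c had 0.02 with 1 assay and -1.36 with the other. The share of choroid plexus in the dissected tissue was not tested.

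Among 9 assays of miRNAs tied to myeloid cells and inflammation, 3 were up by FC, miR-155 and both miR-223 assays, and 0 were down (18.2% and 5.84% over all 411), with a median log2 difference of 0.19. Without P2rx7-/- replicate 3, 0 were up and the median was -0.07. miR-155, induced in activated microglia and macrophages, had FC of 0.409, 1.13 and 2.16 in wt and 1.42, 1.29 and 6.45 in P2rx7-/- samples. Its log2 difference was 1.19 (SE 0.84, 95% interval -0.82 to 3.20, limma adjusted p = 0.977), and 2 of the 3 knockout samples lay within the wt range. The difference was 0.43 without P2rx7-/- replicate 3 and 0.54 without wt replicate 1.

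miR-223, characteristic of neutrophils and other myeloid cells, was measured by 2 assays that agreed in direction. The first gave 1.00, 1.59 and 0.627 in wt and 1.76, 1.23 and 3.31 in P2rx7-/-, and the second gave 0.489, 1.48 and 1.38 in wt and 1.28, 0.888 and 3.31 in P2rx7-/-. P2rx7-/- replicate 3 was the highest sample with both assays and for miR-155. None of the other assays on the list passed an FC threshold. The 2 miR-146b assays had log2 differences of 0.23 and 0.19, while miR-146a had -0.25, miR-142-3p -0.07, miR-21 -0.42 and miR-150 -0.08. Of the blood cell miRNAs, miR-451 had 3.98, 0.864 and 1.25 in P2rx7-/- and 0.967 to 1.07 in wt, with replicate 1 highest, and miR-486 had 0.477, 1.15 and 2.37 in P2rx7-/-. The part of blood in these values was not tested.

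The let-7 guides, abundant miRNAs of differentiated cells that share 1 seed, had mostly negative differences. All 9 on the panel were measured, 8 had a log2 difference below zero, 2 were down by FC, and the median was -0.38. Over all 411, 207 were below zero and 5.84% were down. With 1 sample left out, 1 or 2 of the let-7 guides were down and 0 or 1 up. Their median then ran from -0.60 to -0.23, and these family counts are a description. let-7a had a Ct of 10.1 in wt replicate 1 and 15.1 to 16.1 in the other 5 samples, so its FC was 12.9, 0.307 and 0.253 in wt and 0.189, 0.206 and 0.187 in P2rx7-/-. miR-98 had 0.741, 1.05 and 1.28 in wt and 0.615, 0.799 and 0.294 in P2rx7-/-, a difference of -0.93 (limma adjusted p = 0.977). let-7g was the exception, at 0.29, with P2rx7-/- replicate 1 at 2.72 and the other 2 at 0.757 and 0.879. Of the 6 let-7 passenger strands measured, 0 were past either FC threshold, and let-7e* was lowest at -0.71, with 0.558 to 0.656 in P2rx7-/- and 0.567 to 1.66 in wt.

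The miR-181 miRNAs, which are abundant in brain and immune cells, gave 3 assays and 3 negative log2 differences, from -1.02 to -0.52. miR-181c had FC of 0.772, 1.15 and 1.13 in wt and 0.628, 0.807 and 0.237 in P2rx7-/-, with replicate 3 lowest. It was the 1 of the 3 down by FC (5.84% over all 411), and without that sample 0 were. In the miR-30 family 4 of 5 differences were below zero, as were 207 of all 411, and 1 was down by FC. This was miR-30c, with 0.0576, 0.565 and 1.08 in P2rx7-/- and 0.887 to 1.07 in wt, replicate 1 being lowest. With families this small, these counts are descriptions. miR-29b and miR-29c were both at -0.54.

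Of 10 assays for neuron-enriched miRNAs, 6 were measured and 0 passed either FC threshold, where 18.2% of all 411 were up and 5.84% down. Leaving out P2rx7-/- replicate 2 gave 2 up, and leaving out wt replicate 3 or P2rx7-/- replicate 3 gave 1. The log2 differences ran from -0.39 for miR-137 to 0.48 for miR-138*. miR-124a, a neuron-specific miRNA, had 1.07, 0.859 and 0.588 in P2rx7-/- and 0.791 to 1.26 in wt. The activity-regulated miR-212 and miR-134 had differences of -0.22 and 0.04. Of the 4 endothelial and mural assays measured, 0 passed a threshold (up to 1 in each direction with 1 sample left out), with a range of -0.63 for miR-145 to 0.47 for the first miR-143 assay. The lists of this paragraph are too small for a count of 0 to be told apart from the shares over all 411.

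Of 4 oligodendrocyte assays, 1 was up and 1 down (18.2% and 5.84% over all 411), and both calls followed a replicate 1 sample. miR-219 had 7.26, 0.875 and 0.685 in P2rx7-/- against 0.700 to 1.49 in wt, and miR-338 has been given above. A separate assay named miR-338-3p had FC of 0.567, 0.948 and 1.86 in wt and 0.761, 0.518 and 0.785 in P2rx7-/-, a difference of -0.56 with overlap. Of the miRNAs taken as markers of other tissues, 3 were measured and 1 was up by FC (18.2% over all 411). With lists this small, such counts cannot be told apart from the shares over all miRNAs. The 1 up was the liver miRNA miR-122, at 0.904, 4.09 and 0.488 in P2rx7-/- and 0.703 to 1.76 in wt. Its log2 difference was 0.28, with P2rx7-/- replicate 2 apart. The muscle miRNAs miR-133a and miR-206 had differences of 0.12 and 0.13.

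Among 4 miRNAs described as targeting the receptor's own messenger, 0 passed a threshold, where 18.2% of all 411 were up and 5.84% down. With only 4 assays, this count cannot be told apart from those shares. miR-22 had FC of 1.39, 0.911 and 0.791 in wt and 0.974, 1.20 and 1.26 in P2rx7-/-, a log2 difference of 0.19 (95% interval -0.67 to 1.05, limma adjusted p = 0.977). miR-135a was at -0.10, miR-150 at -0.08 and miR-187 at -0.21. In each the knockout samples overlapped the wt samples.

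The imprinted Dlk1-Dio3 region encodes a large share of brain miRNAs. Of its miR-379 to miR-410 cluster, 50 of 58 assays were measured, 4 were up and 2 down (18.2% and 5.84% over all 411), and the median log2 difference was -0.07. With 1 sample left out, 3 to 8 were up and 2 to 4 down. The lowest was miR-300 at -1.39 and the highest hsa-miR-409-5p at 1.76. Of the neighbouring Meg3, Rtl1-antisense and miR-370 miRNAs, 21 of 28 assays were measured, 5 were up and 0 down, a share up near that of all 411, and the median was 0.06. The 5 were miR-770-3p, miR-1188, miR-431*, hsa-miR-136 and miR-493-3p. miR-1188 had 7.96, 17.0 and 1.07 in P2rx7-/- and 0.343, 1.37 and 2.12 in wt, and miR-136 had 5.85, 2.47 and 2.25 against 2.66, 1.04 and 0.361. In neither did the groups separate.

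Other families were mixed. The miR-17-92 cluster and its paralogs gave 12 measured assays, 3 up and 0 down (18.2% and 5.84% over all 411; 2 to 4 up with 1 sample left out), with a median log2 difference of 0.08. hsa-miR-20b had FC of 0.352, 1.08 and 2.63 in wt and 3.68, 1.73 and 2.21 in P2rx7-/- samples. Of 6 miR-15 and miR-16 family assays, 2 were up and 0 down with a median of -0.02, and of 5 miR-23, miR-24 and miR-27 assays, 2 were up, miR-27a and miR-27b*. With counts this small, the share up over all 411, 18.2%, amounts to about 1 in each family. Without P2rx7-/- replicate 1, 0 of the miR-15 and miR-16 assays were up, with a median of -0.62, and 1 of the miR-23, miR-24 and miR-27 assays. miR-27a had 4.11, 0.804 and 0.498 in P2rx7-/- and 0.812 to 1.13 in wt, so the 2 calls of this family differed in their layout over the samples.

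Assays named with the asterisk of a passenger strand made up 74 of the 411. Of these, 14 were up and 0 down, against 61 up and 24 down of the 337 others, and the median log2 differences were 0.17 and -0.07. Passenger arms under other names were counted among the 337, so these counts do not cover every passenger strand. One such assay, rno-miR-17-3p, was down with an average FC of 0.493. The share of asterisk-named assays up was close to the 18.2% over all 411. By sample, the median of the asterisk-named assays relative to wt was 0.06, -0.18 and 0.12 in wt and -0.14, -0.02 and 0.61 in P2rx7-/-. P2rx7-/- replicate 3 alone was high, and without it the median of the asterisk-named assays was -0.10, with 8 up and 2 down.

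Detection itself separated the genotypes for 2 assays and no more. rno-miR-632 and miR-196a* had a Ct in all 3 P2rx7-/- and in 0 wt post-SE samples, and 0 assays had the reverse. rno-miR-632 had Ct of 18.6, 18.5 and 20.7 in the P2rx7-/- samples, and miR-196a* had 11.2, 10.1 and 11.8. The lowest Ct listed for any miRNA in the 6 samples was 10.1, so an empty entry beside values of 10.1 to 11.8 cannot be told apart from a Ct below that limit. Both assays had a Ct in wt vehicle samples (2 of 3 and 3 of 3), and no fold change was computed for them.

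Whether the genotype difference was particular to status epilepticus was examined against vehicle-injected mice, over 335 miRNAs with a Ct in all 12 samples, normalized to their own mean. With limma, the interaction of genotype with injection reached an adjusted p below 0.05 for 0% of the 335 and an unadjusted one for 8 (2.39%); the lowest adjusted p was 0.851. Across these 335 miRNAs the genotype differences in the 2 conditions, which share no samples, had a Pearson r of -0.04 and a Spearman rho of -0.02, and the same sign in 153 (45.7%). The groups did not overlap for 19 of the 335 after status epilepticus and for 47 with vehicle.

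In both conditions the groups were apart for 7 miRNAs. miR-467a, miR-365, miR-384-3p and miR-190 lay lower in P2rx7-/- each time. For miR-467a, the log2 difference was -1.21 with vehicle and -0.71 after status epilepticus. For miR-190, which did not separate under the normalization over 411 assays, the values were -0.44 and -0.52. The vehicle differences of miR-365 (-1.68) and miR-384-3p (-1.25) rested on wt control replicate 1, with an FC of 7.61 and 2.68, and were -0.21 and -0.54 without it.

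miR-27b*, miR-30d* and miR-1191 lay lower in P2rx7-/- with vehicle and higher after status epilepticus. For miR-27b* the vehicle log2 difference was only -0.25, with FC of 0.789 to 0.881 in P2rx7-/- and 0.907 to 1.15 in wt. miR-30d* had FC of 1.17, 0.948 and 0.905 in wt and 0.413, 0.822 and 0.639 in P2rx7-/- vehicle samples, and, normalized over the 411 assays, 0.745, 1.12 and 1.20 in wt and 1.43, 1.41 and 1.79 in P2rx7-/- post-SE samples. Each condition is relative to its own wt mean. The interaction was 1.32 (SE 0.46, limma adjusted p = 0.851). miR-701 ranked first for the interaction, with a log2 difference of -0.84 with vehicle and 1.13 after status epilepticus (interaction 1.97, SE 0.60, limma adjusted p = 0.851), though its vehicle groups overlapped.

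The miR-34 and miR-449 miRNAs had negative differences in vehicle samples, except miR-34a, whose difference of 3.31 was 0.90 without wt control replicate 1. Over the 7 assays measured in all 12 samples, the family median relative to wt control was 0.17, -0.29 and -0.01 in wt and -1.70, -0.14 and 0.22 in P2rx7-/- control samples. By this median P2rx7-/- control replicate 1 was the low one, but miR-34c and miR-449b were lowest in replicate 3. miR-34c had 0.195, 0.910 and 0.0969 in P2rx7-/- and 0.932 to 1.11 in wt control samples. miR-449b had 0.308, 0.499 and 0.247 in P2rx7-/- and 0.549 to 1.41 in wt control samples, and its interaction was 2.21 (SE 0.80, limma adjusted p = 0.851). miR-155 had 0.504, 1.24 and 38.2 in P2rx7-/- control samples, so its vehicle value rested on replicate 3.

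**Figure D4:**
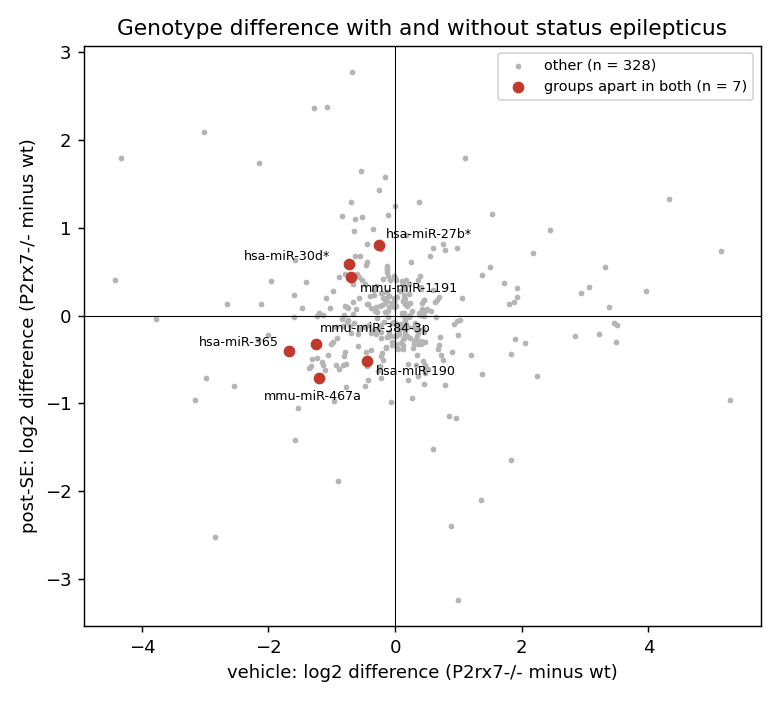
Log2 difference between P2rx7-/- and wt after status epilepticus (y axis) against the same difference in vehicle-injected mice (x axis) for 335 miRNAs measured in all 12 samples; red points are the 7 whose genotype groups were apart in each of the 2 conditions. The cloud shows little slope (Pearson r -0.04), and 4 of the red points lie at lower left and 3 at upper left.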

How the data were processed

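Per the labels, total RNA (1 µg per sample) from pools of 2 hippocampi was reverse transcribed, pre-amplified and run on TaqMan OpenArray plates; RNA degradation was not assessed, and the software that called Ct is not given in the sources used here. The authors deposited Ct values per assay (other unit: PCR cycles, lower meaning more miRNA), with empty entries for no Ct. A second deposited table of fold changes against 1 wt control sample, with empty Ct entered as numbers, was not used.

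Here -dCt, on the log2 scale, was each Ct subtracted from the sample's mean over 411 miRNA assays with a Ct in all 6 post-SE samples; other assays were not imputed. The FC thresholds of 1.5 and 0.6 follow the study's methods and were applied to the arithmetic mean of 3 samples. Groups were taken from the labels and compared with limma 3.58.1 (R 4.3.3; lmFit, eBayes, Benjamini-Hochberg adjustment over 411), checked on simulated data; single values used exact two-sided permutation tests. The interaction used 335 assays and 12 samples in the same way. p-values measure the spread between pooled samples, 3 per group. Named miRNAs were the 10 lowest p, the 5 highest and 5 lowest log2 differences among non-overlapping miRNAs, the 5 highest and 5 lowest FC, the 3 lowest interaction p, miRNAs discussed by the study, 2-assay miRNAs, and the extremes of each list; others named were picked after their values were seen. Members and lists were chosen with earlier results of these data known. Of 41 assays looked up by name, 35 had a RefSeq mature sequence. The alternatives were other normalizers, Ct limits, each sample left out, a replicate block, other fits and a geometric mean.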

Additional observations from a re-analysis of the deposited data

Results flagged for a closer look

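For miR-27b*, miR-30d* and miR-1191, every P2rx7-/- sample lay above every wt sample after status epilepticus and below every wt sample with vehicle. The vehicle margin was narrow for miR-27b*, with a log2 difference of -0.25. The interactions of the 3 miRNAs on the log2 scale were 1.06, 1.32 and 1.13, and none passed the adjustment over 335 miRNAs (limma adjusted p = 0.851 for each). The plant miRNA ath-miR159a, present on the panel as a negative control, gave a Ct in 1 of 12 wells of the 6 post-SE samples, at 13.5 in P2rx7-/- replicate 1.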

How the results depend on the processing

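The number of miRNAs at a limma adjusted p below 0.05 was 0 under all 17 alternatives for the post-SE comparison (lowest adjusted p 0.696 to 0.999; 3 to 14 miRNAs at an unadjusted p below 0.05) and under all 15 for the interaction (0.735 to 0.980; 4 to 17), the replicate block included. Same-numbered samples had correlations of 0.04, 0.12 and 0.23 between their deviations from the group means, against -0.18 to 0.05 for different numbers. Replicates 2 and 3 correlated best with their own number, but wt replicate 1 correlated best with P2rx7-/- replicate 2. These values do not settle whether the numbers mark pairs, and the main fits did not pair them. With the block the count of calls was 0 in both fits. Up-regulated miRNAs numbered 114 and 117 with snoRNA135 and snoRNA202 as normalizers, which moved the median log2 difference of all miRNAs to 0.20 and 0.19. They numbered 15, and the down-regulated 13, when all 3 P2rx7-/- samples had to pass, and 2 and 0 when the methods' t-test had to give p below 0.05. With the geometric mean they were 50 and 33. Without 1 sample, 69 to 93 were up and 26 to 41 down, with 37 down without wt replicate 3 and 41 without P2rx7-/- replicate 2; groups did not overlap for 48 to 80, as fewer samples were compared, and for 13 with the mean over every miRNA detected in a sample as normalizer. Among named miRNAs past an FC threshold, 3 changed sign: miR-326 (-3.95 to 0.23 with 1 sample left out; 0.23 without wt replicate 1), hsa-miR-409-5p (-0.066 to 2.74; lowest without P2rx7-/- replicate 1) and rno-miR-20b (-0.95 to 3.20; lowest without P2rx7-/- replicate 2). The cause was not tested.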
